A study of Mus musculus with 2 samples.

Results

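Cxcl1, Cxcl2, Cxcl3, Cxcr2, Cxcr4 and Ccrl2, 6 of the 27998 genes in the tables, encode chemokines and receptors that steer neutrophils. They were chosen by name, and the row of each was found once in both tables. Their levels were described by cell group, by neutrophil maturation stage and by library. The 2 libraries were made by droplet RNA sequencing (10x Genomics 3' chemistry) of F4/80+CD11b+ cells sorted from collagenase-digested alveolar bone, the bone that holds the teeth. The control library came from C57/B6J male mice of 8 weeks without force, and the orthodontic tooth movement (OTM) library from mice of the same strain, sex and age after a week of force on the first molar. No gene was altered and no drug was given in either group. Each condition had 1 library of cells that are not labelled by animal, so no difference between the libraries has a replicate check, and the intervals given are 95% intervals that cover counting error only.

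CXC chemokines of the ELR class bind CXCR2, the receptor through which neutrophils leave the bone marrow and follow a gradient into inflamed tissue. In the mouse, Cxcl1 (also called KC), Cxcl2 (MIP-2) and Cxcl3 encode such ligands, and macrophages, monocytes, stromal cells and neutrophils themselves can make them. CXCR4 binds CXCL12 and holds neutrophils and their precursors in the marrow. CCRL2 is an atypical receptor that binds chemerin, does not signal by the usual route and can pair with CXCR2 on neutrophils. Neutrophils pass in the marrow from dividing progenitors with azurophil granule proteins through a stage that makes specific granule proteins to mature cells that have left the cell cycle.

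The ligand genes lie in a row on chromosome 5 (GRCm38, the build called mm10 in the authors' processing, GENCODE vM21 annotation): Cxcl3 at chr5:90786103-90789600, Cxcl1 at chr5:90891241-90893115 and Cxcl2 at chr5:90903871-90905938, all on the + strand and each with 4 exons. Cxcr2 (3 exons) lies at chr1:74153989-74161246 on the + strand, Cxcr4 (2 exons) at chr1:128588199-128592293 on the - strand and Ccrl2 (3 exons) at chr9:111054486-111057519 on the - strand. The 120 bases just upstream of the earlier of the RefSeq and GENCODE starts are shown for the 3 ligand genes, because these genes share 2 runs of bases there but differ in which cells hold their transcripts. The sequences are from RefSeq (GRCm38.p6, + strand, 5′ to 3′). Capitals mark the longest run of bases found in all 3 windows, GGGAATTTCCC, which is of the kind that NF-kB binds, and the longest other shared run, ATAAAAGG, which resembles a TATA box.
Cxcl1 (chr5:90891121-90891240): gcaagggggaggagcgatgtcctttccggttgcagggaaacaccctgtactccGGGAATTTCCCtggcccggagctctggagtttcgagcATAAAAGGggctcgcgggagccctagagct
Cxcl2 (chr5:90903751-90903870): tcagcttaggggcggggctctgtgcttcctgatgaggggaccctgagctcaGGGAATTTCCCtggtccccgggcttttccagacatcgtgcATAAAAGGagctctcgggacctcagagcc
Cxcl3 (chr5:90785981-90786100): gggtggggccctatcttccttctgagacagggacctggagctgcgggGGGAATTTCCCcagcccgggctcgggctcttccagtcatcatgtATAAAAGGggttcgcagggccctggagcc
GGGAATTTCCC began 67 bases before the start in Cxcl1, 69 in Cxcl2 and 73 in Cxcl3, and ATAAAAGG began 30, 29 and 29 bases before it. On both strands of the 250 bases before the RefSeq start, GGGAATTTCCC stood in 14 of 32851 windows of mouse genes (0.0426%), ATAAAAGG in 507 (1.54%) and both in 3 windows, those of the ligand genes. As the runs were chosen from these genes, the counts are descriptions. The windows of Cxcr2, Cxcr4 and Ccrl2 held neither run. Cxcl2 and Cxcl3 transcripts share 108 windows of 50 bases, but no 50-base window in the last 500 bases of their transcripts, where 3' reads fall, was shared between any pair of the ligand genes.

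The tables held 14620877 UMIs (unique molecular identifiers, each tagging 1 captured RNA molecule) in 2863 control barcodes and 16500733 UMIs in 2058 OTM barcodes, with medians of 4001 and 6856.5 UMIs per barcode and 6 barcodes present in both libraries. After filtering, 2835 control and 2052 OTM cells were kept and clustered within each library with the 6 genes left out of the clustering features. Cells are labelled alveolar macrophages, yet clusters led by neutrophil genes held 45.2% of control and 51.2% of OTM cells. Their Adgre1 level (the gene of F4/80) was at most 16.1 CPM (counts per 1000000 UMIs of the group), against 34.1 to 144 CPM in the monocyte and macrophage clusters, and their Csf1r level (the macrophage growth factor receptor) was 3.14 to 38.3 CPM, against 53.6 to 319 CPM. The neutrophil-like cells were called proliferating immature (progenitor or cycling genes, 252 control and 245 OTM cells), specific granule stage (577 and 377) and mature (452 and 429). The line between the specific granule and mature stages moved with the clustering. At a finer resolution of 1.0, 202 control and 201 OTM cells were called specific granule stage. There a control cluster of 365 cells led by 5430421N21Rik, Fpr1 and Mmp9 was called mature, as was an OTM cluster of 271. The other cells were called monocyte/macrophage-like (625 and 629), cycling monocyte-like (170 and 113) and MHC class II high (308 and 259), and, in the control library alone, nonclassical monocyte-like (334), resident macrophage-like (60) and unnamed (57, a mix of B cell and erythroid genes). Irf7 was among the leading genes of the nonclassical monocyte-like cluster. At resolution 1.0, 168 control cells had that name, and 174 led by Irf7, Ms4a4b and Fcgr1 were called monocyte/macrophage-like. An OTM cluster of 212 cells with Irf7 among its leading genes was called monocyte/macrophage-like too. The overlap of clusters between the resolutions was not counted. The OTM monocyte/macrophage-like group joined 2 clusters, of which cluster 3 was led by Hbb-bs, a hemoglobin gene. The OTM MHC class II high cluster had the 8 genes of the neutrophil list at a summed 145180 CPM, against 48935 CPM in its control counterpart.

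Cxcl2, the gene of the CXCR2 ligand MIP-2, was found in all groups. Its highest levels were in mature neutrophil-like, MHC class II high and monocyte/macrophage-like cells. In the control library its level was 16896 CPM (16688 to 17107) in mature neutrophil-like cells, 14951 in MHC class II high cells, 12705 in monocyte/macrophage-like cells, 11911 in nonclassical monocyte-like cells, 7354 in resident macrophage-like cells, 6464 in the specific granule stage, 5338 in cycling monocyte-like cells, 1121 in the unnamed cluster and 973 in proliferating immature neutrophil-like cells. No interval overlapped that of the next group in this order. In the OTM library the order was headed by the monocyte/macrophage-like cells at 26116 CPM (25972 to 26261), followed by MHC class II high cells at 19592, mature neutrophil-like cells at 19331, cycling monocyte-like cells at 12372, the specific granule stage at 9123 and proliferating immature cells at 1264. There the intervals of the MHC class II high and mature neutrophil-like cells overlapped. The monocyte and macrophage groups together held 67.4% of the control and 74.8% of the OTM Cxcl2 UMIs, with 52.8% and 48.8% of the cells. The OTM MHC class II high cells, whose neutrophil list was at 145180 CPM, held 19.2% of the OTM Cxcl2 UMIs.

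Cxcl1 and Cxcl3, the genes of the related ligands, were largely monocyte and macrophage transcripts. These groups held 95.7% of the control and 95.03% of the OTM Cxcl1 UMIs, and 89.9% and 91.4% of the Cxcl3 UMIs. The Cxcl1 level in the control library was 1069 CPM (1018 to 1122) in MHC class II high cells, 653 in monocyte/macrophage-like cells, 394 in resident macrophage-like cells, 300 in nonclassical monocyte-like cells and 86.6 in cycling monocyte-like cells, each interval apart from the next, and between 21.4 and 43.7 CPM in the neutrophil-like groups. In OTM it was 1251 CPM (1220 to 1283) in monocyte/macrophage-like cells, 929 in MHC class II high cells, 560 in cycling monocyte-like cells and 23.8 to 99.5 in the neutrophil-like groups. Cxcl3 was highest in monocyte/macrophage-like cells of both libraries, at 306 CPM (286 to 328) in control and 331 (315 to 348) in OTM, and at 8.24 to 55.3 CPM in the neutrophil-like groups. In control resident macrophage-like cells Cxcl3 was at 18.2 CPM (7.30 to 37.4), with 7 UMIs in 60 cells, beside 152 Cxcl1 UMIs in the same cells.

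The receptor genes had other patterns. Cxcr2 was highest in mature neutrophil-like cells, at 133 CPM (115 to 153) in control and 146 (130 to 163) in OTM, followed by the specific granule stage at 64.8 and 62.3. In monocyte/macrophage-like cells it was at 8.85 CPM (5.67 to 13.2) and 11.0 (8.24 to 14.4). Nonclassical monocyte-like cells of the control library had a Cxcr2 level of 53.2 CPM (42.8 to 65.3), whose interval overlapped that of the specific granule stage, in a cluster with the neutrophil list at 103947 CPM. The neutrophil-like groups together held 71.5% of the control and 75.4% of the OTM Cxcr2 UMIs. Ccrl2 was also highest in mature neutrophil-like cells, at 1680 CPM (1615 to 1747) and 2979 (2905 to 3054), but the monocyte and macrophage groups held 63.6% and 61.2% of its UMIs. These groups include the OTM MHC class II high cells, whose neutrophil list was at 145180 CPM. Those cells held 20.9% of the OTM Ccrl2 and 15.6% of the OTM Cxcr2 UMIs, and the part of neutrophil RNA in these shares was not tested. The lowest Ccrl2 levels were 173 and 235 CPM, in proliferating immature neutrophil-like cells of control and OTM. Cxcr4 was the most evenly spread, from 93.9 to 391 CPM across the control groups and from 29.5 to 140 across the OTM groups, with MHC class II high cells highest in both. In the control order, each Cxcr4 interval from the MHC class II high cells down to the resident macrophage-like cells overlapped that of its neighbour.

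**Figure D1:**
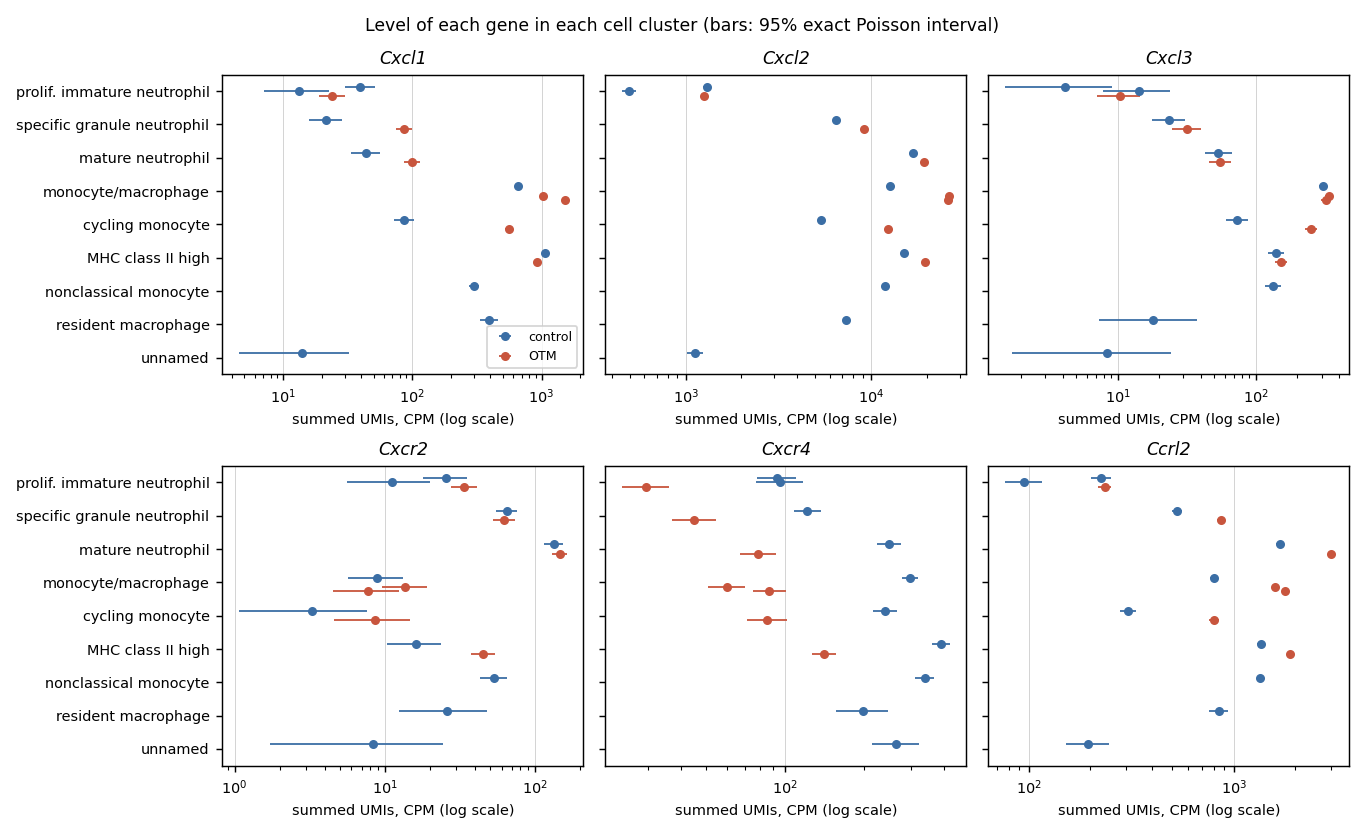
Each point is the level of a gene in 1 cell cluster, in CPM of summed UMIs on a log axis, with its 95% exact Poisson interval, in blue for the control and red for the OTM library. Cxcl1 lies highest in the monocyte/macrophage and MHC class II high rows, Cxcl3 in the monocyte/macrophage row and Cxcr2 in the mature neutrophil row, and the red Cxcr4 points lie to the left of the blue ones in each of the 6 rows that have both.

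The share of cells with a transcript was compared at 1 depth, with every cell thinned to 1500 UMIs. A Cxcl2 UMI was then found in 96.7% of control (94.6 to 98.1) and 97.9% of OTM (96.1 to 99.0) mature neutrophil-like cells, with medians of 26 and 32 UMIs per cell, and in 95.4% and 99.0% of monocyte/macrophage-like cells, with medians of 14 and 37. The unnamed cluster had a Cxcl2 UMI in 50.9% of its cells (37.3 to 64.4) with a median of 1, and proliferating immature neutrophil-like cells in 54.0% (control) and 65.7% (OTM) with medians of 1. The unnamed cluster was found in the control library alone. In each library the shares of the mature neutrophil-like and monocyte/macrophage-like cells lay above that of the proliferating immature cells. The part of free RNA or of doublets in any of these shares was not tested. Before thinning, the control shares were 98.9% in mature neutrophil-like cells (median depth 2402.5 UMIs) and 89.5% in the unnamed cluster (median depth 5542 UMIs).

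Cxcl1 was held by few cells. In the thinned data it was found in 21.4% of control (18.3 to 24.9) and 30.2% of OTM (26.6 to 34.0) monocyte/macrophage-like cells, and the tenth of these cells with the most Cxcl1 held 81.3% and 67.1% of its UMIs. Among mature neutrophil-like cells the shares were 3.76% (2.21 to 5.95) and 5.83% (3.81 to 8.48). These intervals overlapped those of proliferating immature cells of the same library, 3.57% (1.65 to 6.67) and 2.86% (1.16 to 5.80), and the unnamed cluster had 0 of 57 cells with Cxcl1 (up to 6.27%). The shares did not separate mature from immature cells, although in OTM the Cxcl1 level of mature cells, 99.5 CPM (86.4 to 114), lay above that of proliferating immature cells, 23.8 (18.8 to 29.8). Of the 207 OTM Cxcl1 UMIs in that group, 54.1% came from 5 of 429 cells, with up to 36 in 1 cell. Cxcl3 was found in 16.5% and 19.7% of monocyte/macrophage-like cells and in 4.87% (3.08 to 7.28) and 5.13% (3.24 to 7.66) of mature neutrophil-like cells, above the 0.397% (0.01 to 2.19) and 0.816% (0.099 to 2.92) of proliferating immature cells.

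Among the receptors, Cxcr2 was found in 21.02% of control (17.4 to 25.1) and 23.1% of OTM (19.2 to 27.4) mature neutrophil-like cells after thinning, against 1.44% and 1.75% of monocyte/macrophage-like cells. Without thinning these shares were 32.1% and 44.99%, against 2.88% and 7.15%. Ccrl2 was found in 63.1% (58.4 to 67.5) of control and 84.1% (80.3 to 87.5) of OTM mature neutrophil-like cells, and in 60.8% (56.8 to 64.6) and 81.7% (78.5 to 84.7) of monocyte/macrophage-like cells. The unnamed cluster, found in the control library alone, had it in 21.1% (11.4 to 33.9) of its cells, below both control shares. Cxcr4 was found in 31.9% of control (27.6 to 36.4) but 10.7% of OTM (7.96 to 14.04) mature neutrophil-like cells, and in 36.2% (32.4 to 40.1) and 10.49% (8.21 to 13.2) of monocyte/macrophage-like cells. The unnamed cluster, which holds B cell transcripts, had it in 35.1% (22.9 to 48.9). The intervals of control and OTM did not overlap for Ccrl2 or Cxcr4 in either group.

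**Figure D2:**
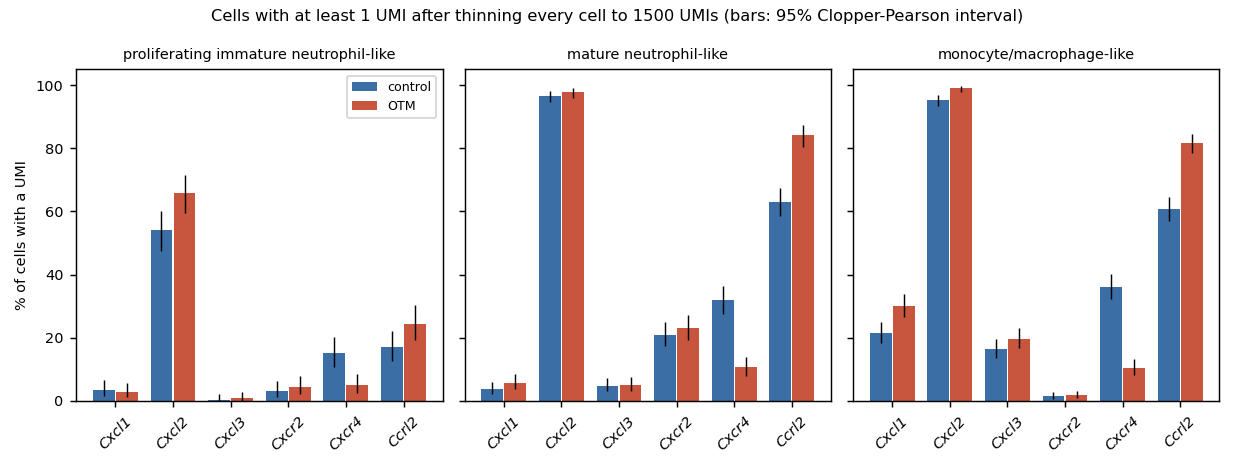
Bars give the share of cells with at least 1 UMI of each gene after thinning to 1500 UMIs per cell, with 95% Clopper-Pearson intervals, in control (blue) and OTM (red). Cxcl2 is in over 95% of mature neutrophil-like and monocyte/macrophage-like cells, and the OTM bar is the lower one for Cxcr4 in all 3 panels and the higher one for Ccrl2.

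The first comparison asked how the 6 genes differ between the specific granule stage and mature neutrophil-like cells. In the control library all 6 were higher in mature cells by 2-fold or more, where 11.5% of the 3775 genes with at least 50 UMIs were, and none was lower by 2-fold, where 1.83% were. Ccrl2 had the highest ratio, at 529 CPM in the specific granule stage and 1680 in mature cells, 3.18-fold (2.97 to 3.404), and Cxcl2 was at 6464 and 16896 CPM, 2.61-fold (2.56 to 2.67). Cxcl3 was 2.28-fold higher (1.60 to 3.27), Cxcr2 2.05-fold (1.65 to 2.56), Cxcr4 2.05-fold (1.75 to 2.40) and Cxcl1 2.04-fold (1.39 to 3.01), and the lower bounds of the last 4 lie under 2. In the OTM library 3 of the 6 genes were higher by 2-fold or more, against 7.49% of 3793 genes, and none was lower, against 1.42%: Ccrl2 at 3.44-fold (3.27 to 3.62), Cxcr2 at 2.34-fold (1.91 to 2.87) and Cxcl2 at 2.12-fold (2.08 to 2.15). Cxcr4 had a ratio of 1.75 (1.36 to 2.26), Cxcl3 of 1.74 (1.29 to 2.36) and Cxcl1 of 1.16 (0.9498 to 1.41). With cells filtered on genes per UMI in place of genes per cell, these 3 turned to 0.939, 0.769 and 0.398. That filter removed deeper cells and kept 85.4% of control but 61.0% of OTM barcodes. With both libraries clustered together the OTM ratio of Cxcl3 was 4.09, and at clustering resolution 1.0 the control ratios were 17.4 for Cxcl3, 4.84 for Cxcl2 and 4.30 for Cxcl1. At that resolution the control specific granule stage was a cluster of 202 cells with 2 Cxcl3 and 9 Cxcl1 UMIs, and the mature group also changed.

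These ratios depend on the scaling. The median gene of the control comparison had a log2 ratio of 0.32, and TMM scaling (a trimmed mean that centres most genes) moved it by -0.32, leaving 4.42% of genes higher and 4.03% lower by 2-fold. Under it 2 of the 6 genes stayed higher by 2-fold in control, Ccrl2 at 2.55 and Cxcl2 at 2.10, and the others had ratios of 1.63 to 1.83. In OTM, where TMM moved the median by -0.28 and left 3.88% of genes higher and 3.08% lower, Ccrl2 alone stayed above 2-fold at 2.83, Cxcr2 was at 1.92 and Cxcl2 at 1.74, and Cxcl1 turned to 0.953.

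A finer clustering (resolution 1.0) split the neutrophil-like cells of each library into 6 clusters, which were ordered from azurophil progenitors through cycling cells and then by mature over specific granule gene scores. In OTM the sixth cluster came last through a specific granule score of -2.35, while its mature score, 1.23, lay below the 1.96 of the fifth. Along this order the control level of Cxcl2 was 496, 1180, 2621, 8518, 14640 and 17725 CPM, and the OTM level was 1212, 1250, 5484, 15099, 16848 and 24835 CPM. It was higher at each of the 5 steps in both libraries, and only the first OTM pair had overlapping intervals. The end of the order stood 35.8 times above its beginning in control and 20.5 times in OTM. Ccrl2 went from 94.6 to 1506 CPM in control and from 180 to 4345 CPM in OTM, 15.9 and 24.1 times, with no overlap between neighbours. Its control peak of 1939 CPM was in the fifth cluster, which was led by the interferon-induced genes Ifit3, Rsad2 and Isg15. No OTM cluster in this order was led by such genes.

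Cxcr2 followed the same order from 11.2 to 116 CPM in control, with the highest value, 164 CPM (133 to 201), again in the fifth cluster. In OTM it went from 15.7 to 242 CPM (200 to 290) and was highest in the sixth cluster, led by Hcar2, Prok2 and Cxcr2 itself. The share of thinned cells with Cxcr2 was 2.50% in the first and 17.9% in the last control cluster, and 2.38% and 41.0% in OTM. Cxcr4 was flat over the first 4 control clusters, between 94.3 and 120 CPM, and then at 281 and 218 CPM. In OTM it was lower throughout, from 26.1 to 95.6 CPM, higher at each step but with every neighbouring pair of intervals overlapping. Cxcl3 ended at 49.3 CPM in control and 77.3 in OTM, after 2.51 to 35.9 CPM over the first 4 control clusters. Cxcl1 had no steady order: its control level was 11.3 CPM in the third, 115 in the fifth and 50.3 in the sixth cluster, on 9, 66 and 50 UMIs.

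**Figure D3:**
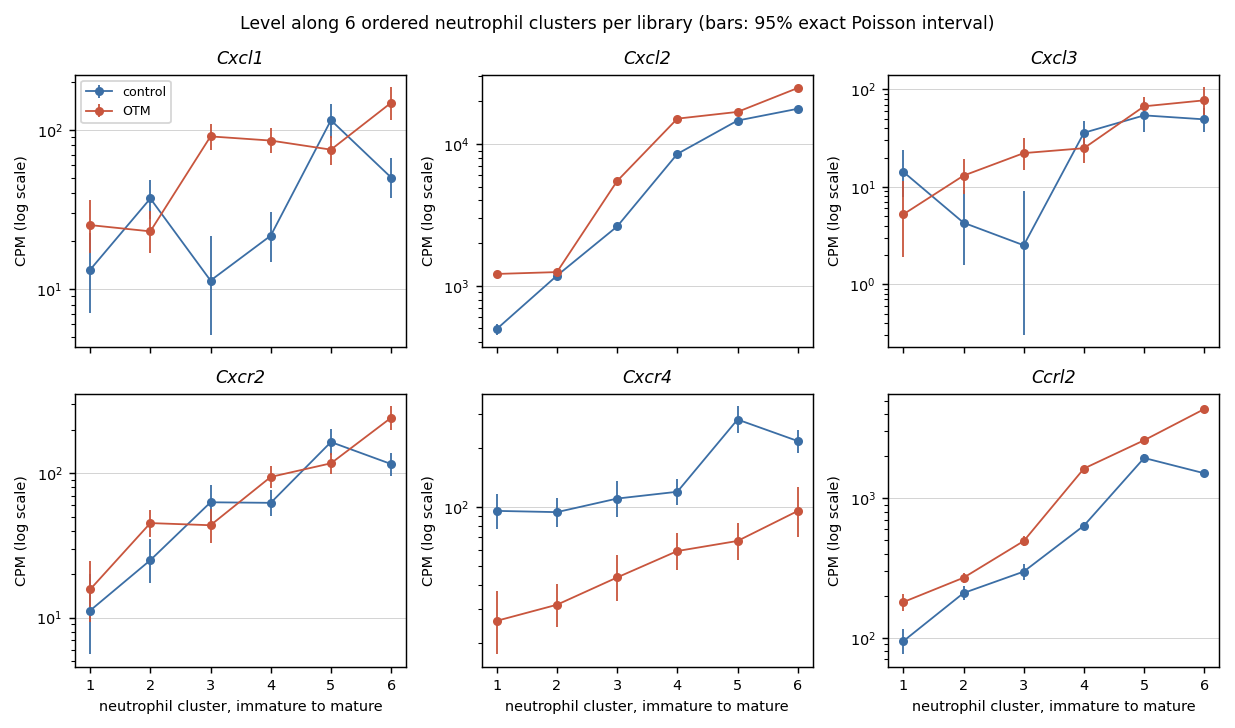
Levels in CPM on a log axis are drawn for 6 neutrophil clusters per library, numbered from immature to mature by the order of scores in the text, with 95% exact Poisson intervals. Cxcl2 and Ccrl2 climb by more than 15 times in both libraries, and the OTM line of Cxcr4 runs below the control line at every position.

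The next comparison set mature neutrophil-like cells against monocyte/macrophage-like cells of the same library. Cxcr2 was the neutrophil transcript of the set, 15.03-fold higher (9.82 to 24.0) in control and 13.3-fold higher (9.87 to 18.1) in OTM. Cxcl1 was 14.95-fold lower (11.7 to 19.5) and 12.6-fold lower (10.9 to 14.5), and Cxcl3 5.70-fold lower (4.53 to 7.26) and 5.99-fold lower (4.95 to 7.30). Other processing moved several of these values past their intervals. The alternatives gave ratios of 7.16 to 25.5 in control and 11.3 to 24.3 in OTM for Cxcr2, and in OTM Cxcl1 was 4.28-fold to 26.9-fold lower and Cxcl3 2.92-fold to 6.69-fold lower. In control Cxcl1 was 10.7-fold to 18.2-fold lower and Cxcl3 3.57-fold to 6.69-fold lower, so each of these 3 genes stayed past 2-fold on its side under every alternative run. Ccrl2 was 2.09-fold higher (1.98 to 2.22) in control and 1.77-fold higher (1.72 to 1.83) in OTM, while the control ratio was 1.31 at clustering resolution 1.0. In control, 2 of the 6 genes were thus higher and 2 lower by 2-fold or more, where 8.1% and 32.2% of 4925 genes were. In OTM, 1 was higher and 2 were lower, where 7.88% and 35.3% of 5813 genes were.

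Cxcl2 lay on different sides in the libraries, with a ratio of mature neutrophil-like over monocyte/macrophage-like cells of 1.33 (1.31 to 1.35) in control and 0.740 (0.732 to 0.749) in OTM, where TMM scaling turned the latter to 1.04. Cxcr4 had ratios of 0.834 (0.736 to 0.945) and 1.09 (0.902 to 1.32), and TMM turned the control ratio to 1.17. TMM scaling moved the median gene by 0.49 in both comparisons and gave 13.8% of genes higher and 15.9% lower in control and 13.2% and 19.9% in OTM. Under it Ccrl2 was past 2-fold in both libraries, at 2.94 and 2.50, and Cxcr2, Cxcl1 and Cxcl3 stayed past it in the same direction.

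The comparison of the study, OTM over control, was made within groups. In monocyte/macrophage-like cells, Ccrl2 was at 803 CPM in control and 1678 in OTM, 2.09-fold higher (1.99 to 2.19), and Cxcl2 at 12705 and 26116 CPM, 2.06-fold higher (2.03 to 2.08). Cxcl1 was at 653 and 1251 CPM, 1.92-fold higher (1.82 to 2.02), while Cxcl3 was at 306 and 331 CPM with a ratio of 1.08 (0.993 to 1.18), and Cxcr2 had a ratio of 1.24 (0.754 to 2.10), which turned to as low as 0.657 under other processing. Cxcr4 was at 298 and 72.2 CPM, 4.13-fold lower (3.63 to 4.69). Thus 2 of the 6 genes were higher and 1 was lower by 2-fold or more, where 3.55% and 4.82% of 6309 genes were. Of those genes, 0.333% had a lower ratio than Cxcr4, and 96.8% had a lower ratio than Ccrl2.

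The 2 OTM monocyte/macrophage-like clusters had similar values of Cxcl2 and Ccrl2. Against the control group, Cxcl2 was 2.08-fold higher in OTM cluster 2 and 2.03-fold in cluster 3, and Ccrl2 1.99-fold and 2.21-fold. Cxcl1 and Cxcr4 differed more between the clusters. Cxcl1 was at 1025 CPM (1.57-fold, 1.48 to 1.67) in cluster 2 and 1521 CPM (2.33-fold, 2.20 to 2.47) in cluster 3. Cxcr4 was at 59.8 CPM (50.8 to 69.9) and 87.0 CPM (75.1 to 100), 4.98-fold and 3.42-fold lower than in control. Cxcr2 was at 13.7 and 7.74 CPM, with overlapping intervals. With TMM scaling, which moved the median gene by 0.17, 4.60% of genes were higher and 3.01% lower, and Cxcl1 was past 2-fold at 2.16. With both libraries clustered together none of the 6 genes was higher by 2-fold, with Cxcl2 at 1.97 and Ccrl2 at 1.73, while Cxcr4 kept a ratio of 0.245.

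Within mature neutrophil-like cells, Cxcr4 was at 249 CPM in control and 78.9 in OTM, 3.15-fold lower (2.62 to 3.81). Cxcl1 was 2.28-fold higher (1.72 to 3.06), from 65 UMIs in 452 cells to 207 in 429. The shares and the few cells behind these UMIs are described above. However, the Cxcl1 ratio was 0.823 when both libraries were clustered together. It was 7.50 under the filter on genes per UMI, which kept a smaller share of OTM than of control barcodes. Ccrl2 was 1.77-fold higher (1.69 to 1.86) and Cxcl2 1.14-fold higher (1.13 to 1.16). Cxcr2 had a ratio of 1.10 (0.913 to 1.32) and Cxcl3 of 1.03 (0.767 to 1.39). By the 2-fold rule 1 gene was higher and 1 lower, where 2.77% and 5.83% of 3719 genes were, and under TMM scaling, with 4.41% and 3.47% of genes, 2 were higher, the added one being Ccrl2 at 2.01. The median gene had a log2 ratio of -0.16 in these cells and -0.13 in the monocyte/macrophage-like cells. With both neutrophil stages pooled, an alternative chosen after seeing the data, the ratios were 3.07 for Cxcl1, 1.91 for Ccrl2, 1.32 for Cxcl2 and 0.357 for Cxcr4.

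Across the 6 cell groups found in both libraries, Cxcr4 was lower in OTM by 2-fold or more in each, from 2.69-fold in the specific granule stage to 4.13-fold in monocyte/macrophage-like cells. Ccrl2 was higher in each, from 1.36-fold in proliferating immature to 2.63-fold in cycling monocyte-like cells, and Cxcl2 was higher in each, from 1.14-fold to 2.32-fold, all with intervals above 1. By group, 85.5% to 98.6% of genes had a lower ratio than Ccrl2, 76.1% to 98.3% than Cxcl2 and 0.333% to 1.33% than Cxcr4. All groups come from the same 2 libraries, and the shares of all genes higher or lower in all 6 groups were not counted. Cxcl1 ranged from a ratio of 0.827 (0.590 to 1.16) in proliferating immature cells and 0.869 (0.816 to 0.926) in MHC class II high cells to 6.47 (5.38 to 7.83) in cycling monocyte-like cells, where it was at 86.6 CPM in control and 560 in OTM. Of the 847 OTM Cxcl1 UMIs in those cells, 54.4% came from 5 of 113 cells, with up to 156 in 1 cell, and of the 132 control UMIs 68.2% came from 5 of 170 cells. Cxcl3 stood out in the cycling monocyte-like cells alone, at 73.5 and 252 CPM, 3.43-fold higher (2.77 to 4.27). In the MHC class II high cells Cxcr2 was 2.81-fold higher (1.81 to 4.52), on 25 and 115 UMIs, in the OTM cluster whose neutrophil list was at 145180 CPM, and the part of neutrophil RNA in this value was not tested. The control library had nonclassical monocyte-like and resident macrophage-like cells in clusters of their own and the OTM library did not, and the part of this in the monocyte values was not tested.

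**Figure D4:**
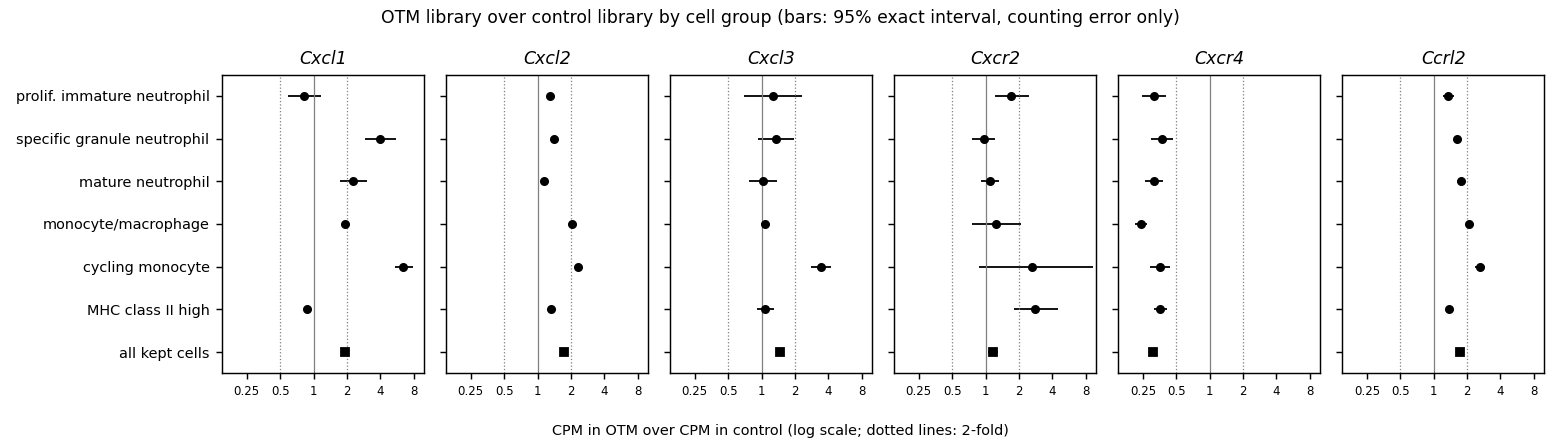
Points give the level in OTM over that in control on a log axis for each cell group, with 95% exact conditional intervals, and squares give all kept cells. The solid line is a ratio of 1 and dotted lines are 2-fold. Cxcr4 lies left of the lower dotted line in every row, and Ccrl2 and Cxcl2 lie right of 1 in every row.

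Other genes of these pathways were read from 11 lists, with 60 of 61 genes found in the tables. Of the other CXCR2 ligands, Cxcl5, Ppbp and Cxcl15 had at most 2 UMIs in mature neutrophil-like or monocyte/macrophage-like cells of either library. Cxcl12, the CXCR4 ligand, had 1 UMI in control monocyte/macrophage-like cells, and Rarres2, the chemerin gene, had 0 UMIs in both groups of both libraries. The chemerin receptor gene Cmklr1 was at 1.84 and 5.81 CPM in control and OTM monocyte/macrophage-like cells, on 5 and 28 UMIs, and Cxcr1 and Ackr1 had at most 3 UMIs in any of these groups. Thus Cxcl1, Cxcl2, Cxcl3 and Cxcr2 were the genes of the CXCR2 axis with enough UMIs to compare.

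Of 6 receptor genes for other neutrophil attractants, 4 were higher by 2-fold in OTM monocyte/macrophage-like cells, where 3.55% of all genes were, with a list median log2 ratio of 1.16 against -0.13 over all genes. The formyl peptide receptor genes Fpr1 and Fpr2 were 8.41-fold and 3.397-fold higher, the complement C5a receptor gene C5ar1 2.41-fold and Ccr1 2.06-fold, while Ltb4r1 had a ratio of 1.07 and Ptafr of 0.967. In mature neutrophil-like cells 2 of the 6, Fpr1 (2.72-fold) and C5ar1 (2.08-fold), were higher by 2-fold, where 2.77% of all genes were, the others had ratios of 0.991 to 1.97, and the list median was 0.54 against -0.16. Csf3, the gene of the granulocyte growth factor G-CSF, was at 17.5 CPM in control and 124 in OTM mature neutrophil-like cells, on 26 and 257 UMIs, and at 98.1 and 186 CPM in monocyte/macrophage-like cells. Its receptor gene Csf3r had ratios of 0.759 and 0.903. Of the 3 receptor desensitization genes, Adrbk1, which encodes a receptor kinase, was 2.06-fold lower in mature neutrophil-like cells, and none was past 2-fold in monocyte/macrophage-like cells. None of the 4 neutrophil adhesion genes was past 2-fold in either group. Of all genes, 2.77% were higher and 5.83% lower by 2-fold in mature neutrophil-like cells, and 3.55% and 4.82% in monocyte/macrophage-like cells.

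Of 10 NF-kB target genes, 4 were higher by 2-fold in OTM monocyte/macrophage-like cells and 2 in mature neutrophil-like cells, where 3.55% and 2.77% of all genes were. None was lower by 2-fold, and the list medians were 0.71 and 0.26, against -0.13 and -0.16 over all genes. Il1b, the gene of the cytokine interleukin-1 beta, was 4.08-fold and 1.72-fold higher, and Tnf 3.92-fold and 2.09-fold. Of the 7 other chemokine genes, Ccl3, Ccl4 and Cxcl10 were higher by 2-fold in OTM monocyte/macrophage-like cells, where 3.55% of all genes were. In mature neutrophil-like cells Ccl4 was 2.16-fold lower, where 5.83% of all genes were lower by 2-fold. The list medians were 0.52 and -0.06, against -0.13 and -0.16 over all genes. Immediate early and heat shock genes, which tissue digestion can induce, were lower in OTM in part, as Cxcr4 was. Of its genes with enough UMIs, 4 of 11 in monocyte/macrophage-like and 4 of 9 in mature neutrophil-like cells were lower by 2-fold in OTM, where 4.82% and 5.83% of all genes were, and none was higher, with list medians of -0.51 in monocyte/macrophage-like and -0.52 in mature neutrophil-like cells. Fosb was 2.16-fold and 3.20-fold lower, and Hspa1a was at 81.8 and 9.75 CPM in control and OTM monocyte/macrophage-like cells. The summed list was at 6454 and 6868 CPM in monocyte/macrophage-like cells and 8331 and 6585 CPM in mature neutrophil-like cells. Within the monocyte/macrophage-like sum, Ier3 was at 1042 CPM in control and 1823 in OTM, and Junb at 2468 and 2801 CPM. The part of this list in the Cxcr4 values was not tested.

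Pairs of the 6 genes were also counted within single cells. In control monocyte/macrophage-like cells thinned to 1500 UMIs, Cxcl3 was found in 28.4% (20.9 to 36.8) of 134 cells with Cxcl1 and in 13.2% (10.4 to 16.6) of 491 cells without it. The intervals did not overlap. The OTM shares were 19.5% (14.1 to 25.8) of 190 and 19.8% (16.2 to 23.9) of 439 cells. Cells with Cxcl1 held a mean of 26.1 Cxcl2 UMIs in control, against 17.7 in those without, and 43.3 against 39.1 in OTM. In control monocyte/macrophage-like cells Cxcl1 was found in 25.3% (20.97 to 29.95) of cells with Ccrl2 and 15.5% (11.2 to 20.7) of those without, and in OTM in 30.4% and 29.6%. Among OTM mature neutrophil-like cells, those with Ccrl2 held a mean of 41.7 Cxcl2 UMIs and those without held 18.2, and in control the means were 34.3 and 23.9. The 99 OTM mature cells with Cxcr2 had a mean of 8.11 Ccrl2 UMIs, against 5.39 in the 330 without, and the control means were 3.67 and 2.76. Before thinning, OTM mature cells with Ccrl2 had a median depth of 3281 UMIs and those without had 4757. The part of depth or of maturation within the mature group in these pairs was not tested. The share of mature cells with Cxcr4 was 13.1% (7.18 to 21.4) with Cxcr2 and 10.0% (6.98 to 13.8) without it in OTM, and 29.5% (20.6 to 39.7) and 32.5% (27.7 to 37.6) in control, with overlapping intervals in both.

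Over the 17 clusters of both libraries, log2 levels of Ccrl2 and Cxcl2 had a Pearson r of 0.95, Cxcl1 and Cxcl3 of 0.86, and Cxcl1 and Cxcl2 of 0.77, while Cxcr2 had -0.27 with Cxcl1 and -0.24 with Cxcl3. These are descriptions of clusters that share libraries and cell types, and no test was made. Among 3549 genes, those most like Cxcl2 were Nlrp3 (r = 0.98), Birc3 (0.98) and Plek (0.98). For Cxcl1 they were Gm6377 (0.97), Tnfsf9 (0.97) and Ms4a6d (0.96), and for Cxcl3 they were Mefv (0.97), Ptpn1 (0.96) and Ier3 (0.95). Those most like Cxcr2 were G0s2 (0.97), Mxd1 (0.95) and Hdc (0.95), and those most like Ccrl2 were Pnrc1 (0.99), Plek (0.97) and Rab20 (0.97). For Cxcr4 the highest values were lower, with H3f3b (0.88), Gm42418 (0.88) and Rgs2 (0.87).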

How the data were processed

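Per the labels' processing notes, Cell Ranger 3.0.0 (genome build mm10) and Seurat 3.0.0 were the authors' tools. The deposited values are raw UMI counts per gene and barcode, without normalization. The 6 genes and the gene lists were chosen with earlier results of these data known.

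Cells with at least 200 genes and at most 5% mitochondrial UMIs were kept. Each library was clustered alone in Seurat 5.3.0 (R 4.3.3): normalization to 10000 UMIs per cell, with depth and mitochondrial content regressed out, 12 (control) or 8 (OTM) principal components, 20 neighbours and resolution 0.6, with the 6 genes removed from the variable features. Marker lists (18) were scored by their mean log2 level against the rest of the library. Clusters were named by the highest score among the neutrophil, the monocyte and macrophage, and the B cell and T or NK cell lists. A cluster highest on a B cell or T or NK cell list was left unnamed. The dendritic cell, basophil, eosinophil, osteoclast, erythroid, stromal and interferon lists did not enter the names. A score of 1.0 or more on the cycling or progenitor list set the proliferating groups. Groups of the same name within a library were summed.

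Levels are CPM of summed UMIs with exact Poisson intervals, intervals of ratios come from the exact binomial distribution given both counts, and those of cell shares are Clopper-Pearson (95%, counting error only). PCR duplicates are removed by UMIs, but cells of 1 library are not replicates, so no p-value was computed. A gene counted as past 2-fold when its log2 ratio, with 0.5 UMIs added to each sum, was at least 1 in size, among genes with at least 50 UMIs over both groups. Cells were thinned to 1500 UMIs by drawing without replacement, and no kept cell was shallower. Likeness is Pearson's r of log2(CPM + 10) over clusters of at least 20 cells, among genes at 50 CPM or more in a cluster, and the 3 highest are named for each gene. Scrublet in scanpy 1.11.5 called 5 of 4887 cells doublets and so did not work here, and its calls were used only as an alternative. TMM factors came from edgeR 4.0.16, without its tests. Sums were made with pandas 2.3.3 and numpy 2.4.6 and intervals with scipy 1.17.1, in Python 3.11.15, and the ratio step was tested on simulated data.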

Additional observations from a re-analysis of the deposited data

How the results depend on the processing

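Each ratio was recomputed under 9 alternatives set in advance, where they applied, and 3 chosen after seeing the data: both neutrophil stages pooled, the deepest 10% of cells of each cluster left out, and cells with 3 or more basophil list UMIs left out. Of 366 ratios, 210 stayed within the counting interval of the reported ratio. In all, 17 fell on the other side of 1, and 1 of these had been past 2-fold, Cxcl1 in OTM over control mature neutrophil-like cells, at 0.823 with both libraries clustered together. The lower Cxcr4 in OTM stayed past 2-fold under every alternative run, at 2.52-fold to 4.53-fold lower in mature neutrophil-like and 3.67-fold to 4.33-fold lower in monocyte/macrophage-like cells.

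Of 134 counts of the 6 genes past 2-fold, 114 stayed within 1.5 times the reported count. Shares of all genes higher by 2-fold stand beside the counts for TMM scaling and for other totals. For the other counts no such share is given, so a changed count cannot be told apart from a shift of all genes. For mature over specific granule stage in control, the count higher was 2 with TMM scaling (4.42% of all genes) and 3 with totals that left out the most abundant genes (8.08%). In OTM it was 1 with TMM scaling (3.88% of all genes) and 5 without the deepest 10% of cells. The count lower was 1 with at least 200 genes per 1000 UMIs, a literal reading of the filter on cells that removed deeper cells. For mature neutrophil-like over monocyte/macrophage-like cells, the count higher in control was 1 with that filter, at resolution 1.0, with the 6 genes kept among the clustering features and with Scrublet calls removed. In OTM it was 2 with that filter, with the mean of each cell's CPM, with TMM scaling (13.2% of all genes) and without the deepest 10% of cells. For OTM over control in mature neutrophil-like cells, the count higher was 2 with that filter, with the 6 genes kept and with the mean of each cell's CPM. It was also 2 with TMM scaling (4.41% of all genes), and 0 with both libraries clustered together. In monocyte/macrophage-like cells it was 0 with both libraries clustered together and 1 with totals that left out the most abundant genes (3.31% of all genes). With a minimum of 10 UMIs in place of 50, 6 of the 12 percentages of all genes moved by over 1.5 times. In mature neutrophil-like cells of OTM over control these were 5.09% higher and 12.2% lower. The cause of these changes was not tested. No paired analysis was possible because each condition had 1 library, and library and condition cannot be told apart.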
